A study of Mus musculus with 12 samples.

Results

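The genes described are 38 that encode heterogeneous nuclear ribonucleoproteins (hnRNPs) and auxiliary splicing regulators of the CELF, MBNL, PTB, STAR, Hu and Tra2 families. They were chosen by their symbols from a list of such proteins. The rule used no measured values, but it was set with earlier results of these data known. All 38 were found among the 55536 annotated genes of the count table. All 38 passed edgeR's filter on low counts, which kept 18817 genes, and they have 402 annotated transcripts.

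RNA-seq was carried out on CD8+ T cells of OT-I mice, C57BL/6J mice that carry a transgenic T cell receptor for the ovalbumin peptide SIINFEKL, so that nearly every T cell sees the same antigen. For the Ag group (5 libraries), OT-I cells were transferred into C57BL/6J mice that received antigen only (with control IgG per the study's methods), and for the Ag+Costim group (5 libraries) the recipients received antigen with the agonist antibodies anti-OX40 (CD134) and anti-41BB (CD137). In both groups, CD8+ T cells were sorted from spleen and lymph nodes 4 days later per the labels. Per the study's methods, the sort selected the transferred cells by a surface marker of the donor and by the chains of the transgenic receptor. The Naive group (2 libraries) consisted of CD8+ T cells purified from OT-I mice without transfer. Transfer, sorting and antigen all differ between Naive and the other groups and cannot be told apart in those comparisons. The labels give no age, and the study's methods list adult mice of both sexes and OT-I donors that also lack Rag1 or Rag2. All cells carry the same receptor transgene, agonist antibodies stand in for the natural ligands, and the labels do not say whether each library came from 1 mouse or from pooled mice. P-values therefore measure the spread between these libraries, part of which may be technical.

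hnRNPs coat nascent transcripts in the nucleus and bind short motifs in exons and introns. Many of them block splice sites or bring distant sites together, and so act against the SR proteins, which mostly favour exon inclusion. Members of the same families also bind mature mRNA and set its export, stability and translation, and several of them limit their own amount by splicing their transcripts into forms that are degraded by nonsense-mediated decay. In T cells, hnRNPLL and hnRNPL are known for skipping the variable exons of Ptprc, which encodes CD45, and CELF2 for exon choice after activation.

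Library totals were 24006053 (Ag library 4) to 49294934 counts, and 3 counts equalled 0.0609 to 0.125 CPM. CPM are counts scaled to a common library size, after TMM (trimmed mean of M values). Summed CPM of 8 markers of CD8 T cells was 14429 to 15361 in Naive, 14401 to 20645 in Ag and 7732 to 10271 in Ag+Costim, and Cd4 was at most 2.44 CPM. The 6 proliferation genes together reached 196 to 208 CPM in Naive, 552 to 971 CPM in Ag and 2280 to 3093 CPM in Ag+Costim. Erythroid genes, which belong to red cells and their precursors, stood at 150 to 2068 CPM in Naive, 625 to 6373 CPM in Ag, with the highest value in Ag library 4, and 14.5 to 222 CPM in Ag+Costim. B cell markers summed to 27.2 to 29.7, 109 to 158 and 22.5 to 59.1 CPM in Naive, Ag and Ag+Costim, and myeloid markers to 22.2 to 47.0, 36.3 to 141 and 73.4 to 118 CPM. Among the myeloid markers, edgeR called Itgam, Csf1r and Adgre1 higher in Ag+Costim than in Ag (5.29-fold, 2.93-fold and 2.61-fold), with Lyz2 and Cd14 not called. The part of proliferation and of other cells in the results that follow was not tested. In bulk libraries, fewer cells of a type and less RNA per cell cannot be told apart.

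Addition of costimulation to antigen went with higher mRNA of most of these regulators. Between Ag+Costim and Ag, 26 of the 38 genes rose, 2 fell and 10 were not called by edgeR's quasi-likelihood test with Benjamini-Hochberg adjustment over all 18817 genes. Of all genes tested, 53.1% were called in this comparison, 26.6% higher and 26.5% lower. As a median, the 38 genes changed by 0.67 on the log2 scale, beside -0.05 for all genes. For 27 of the 38 genes the 5 Ag+Costim libraries did not overlap the 5 Ag libraries, which was so for 39.8% of all genes. All 28 calls held when any 1 library was left out, and 22 of them held in all alternatives. The others were lost with a correction for gene length (Khdrbs1, Mbnl1 and Pcbp2), with upper-quartile scaling or log2(FPKM + 1) (Hnrnph1), or with upper-quartile scaling (Celf2 and Ptbp3, whose sign turned with the length correction). The split between Ag and Naive was even in the main fit, and uneven with the length correction or with FPKM. Between Ag and Naive, 11 genes rose, 11 fell and 16 were not called, with a median of -0.11 beside 0.02 for all genes. The background in that comparison was 46.7% of genes called, 24.2% higher and 22.5% lower. The Ag and Naive libraries did not overlap for 24 of the 38 genes, and for 56.4% of all genes. Ag+Costim against Naive gave 25 genes higher, 3 lower and 10 not called, with a median of 0.77 beside -0.02 for all genes. There 52.3% of all genes were called, 26.9% higher and 25.4% lower. The 3 comparisons share libraries, so their counts are not independent of each other. With the length correction, the calls of Celf1, Hnrnpr, Hnrnpul2, Khsrp, Mbnl1 and Pcbp1 were lost between Naive and Ag, and with FPKM those of Celf2, Hnrnpab, Hnrnpd, Hnrnpm and Pcbp1. The comparisons with Naive rest on 2 libraries. Without at least 1 of them, 10 of the 22 calls between Naive and Ag were lost (Celf2, Hnrnpa1, Hnrnpab, Hnrnpc, Hnrnpd, Hnrnpk, Hnrnpm, Khsrp, Pcbp1 and Tra2a), and the genes called higher were 4 without Naive library 1 and 3 without Naive library 2. In Ag+Costim against Naive, the calls of Hnrnpd, Hnrnpdl, Hnrnpr, Khdrbs1, Khsrp, Pcbp1 and Pcbp2 were lost in the same way. The call of Celf2 between Naive and Ag was also lost without Ag library 1, and that of Pcbp1 without Ag library 1, 2, 3 or 5. In Ag+Costim against Naive, that of Hnrnpr was also lost without Ag+Costim library 2, 3 or 5, and that of Hnrnpdl without Ag library 1 or 2 or Ag+Costim library 1, 2, 4 or 5.

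**Figure D1:**
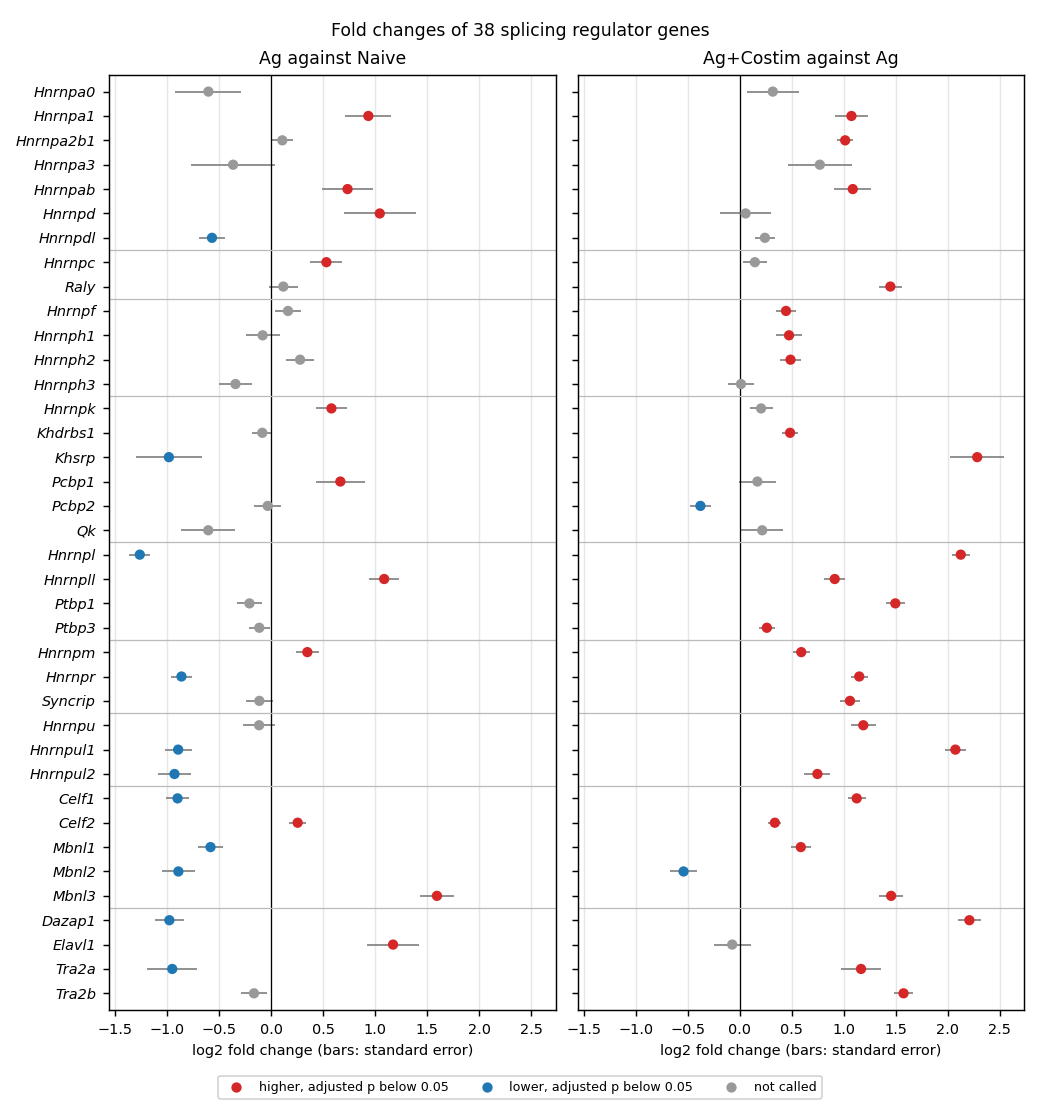
Log2 fold change of each of the 38 genes in Ag against Naive (left) and Ag+Costim against Ag (right), on the horizontal axis, with the standard error as a bar and genes ordered by family from top to bottom. Red marks genes called higher, blue genes called lower and grey genes not called at an adjusted p below 0.05. In the right panel 26 points are red and 2 blue, and in the left panel 11 are red and 11 blue.

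All 4 genes of the L and PTB families, Hnrnpl, Hnrnpll, Ptbp1 and Ptbp3, rose between Ag and Ag+Costim. HNRNPL binds CA-rich RNA and represses or activates nearby exons. Hnrnpl (chr7:28808541-28822266, mm10) stood at 175 and 168 CPM in the Naive libraries, 73.8, 70.7, 69.5, 75.3 and 67.6 CPM in the Ag libraries and 300.3, 358, 325, 268 and 304 CPM in the Ag+Costim libraries, in the order of the replicate numbers. The Ag libraries were below both Naive libraries and the Ag+Costim libraries above them, with no overlap between any groups. Hnrnpl fell between Naive and Ag with a log2 fold change of -1.26 ± 0.10 (standard error, with adjusted p = 7.23e-07). It was 4.36-fold higher in Ag+Costim than in Ag (log2 fold change 2.12 ± 0.08, adjusted p = 2.56e-09). Its paralogue Hnrnpll (chr17:80029487-80062334), whose protein silences the variable exons of Ptprc in activated and memory T cells, moved in steps of one direction. Hnrnpll values were 36.1 and 39.5 CPM in the Naive libraries, 85.8, 87.1, 74.6, 64.8 and 88.8 CPM in the Ag libraries and 157, 160.5, 163, 129.6 and 145 CPM in the Ag+Costim libraries. No Hnrnpll value of one group reached into another group, and the log2 fold changes were 1.09 ± 0.14 for Ag against Naive (adjusted p = 3.59e-05) and 0.91 ± 0.10 for Ag+Costim against Ag (adjusted p = 5.13e-06).

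PTBP1 is the polypyrimidine tract binding protein, a repressor of exons flanked by CU-rich sequence. Ptbp1 (chr10:79854427-79864771) had 169.6 and 172 CPM in the Naive libraries, 148, 164, 138, 144 and 146 CPM in the Ag libraries and 402, 492, 439, 358 and 393 CPM in the Ag+Costim libraries. All 5 Ag+Costim values lay above every other library, with a 2.82-fold difference from Ag (log2 fold change 1.49 ± 0.09, adjusted p = 3.97e-08), and the difference of Ag from Naive was -0.21 ± 0.12 and not called (adjusted p = 0.162). Ptbp3, a paralogue found mainly in blood cells, had means of 89.2 ± 8.08 CPM in Ag and 107 ± 5.93 CPM in Ag+Costim (SD, n = 5) and a log2 fold change of 0.26 ± 0.08 (adjusted p = 0.0122). Its direction turned in fits scaled or corrected for length, and the cause was not tested. On log2(FPKM + 1), where FPKM is the level scaled for transcript length and library size, limma gave -0.38 for Ptbp3.

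**Figure D2:**
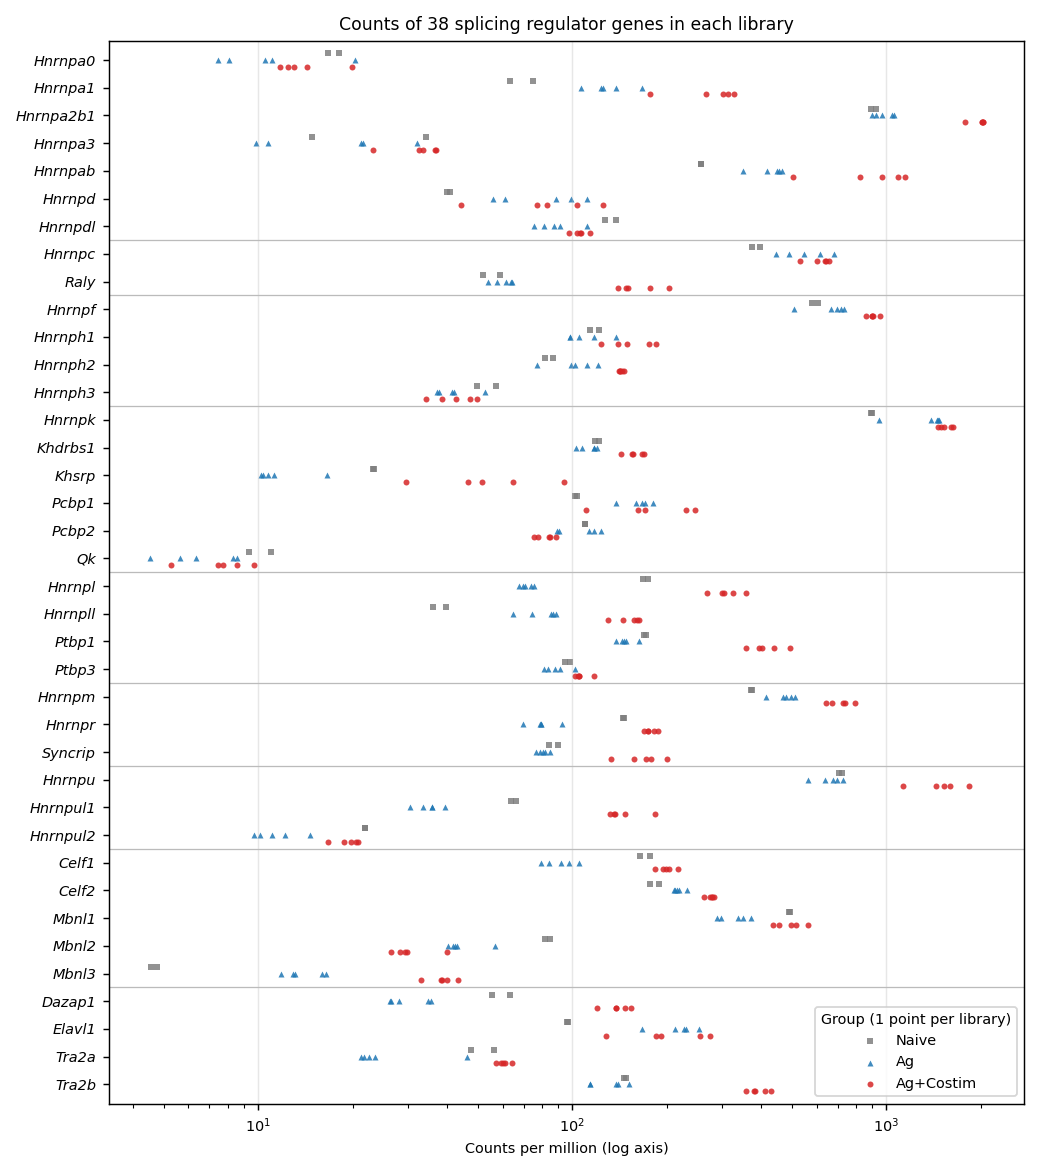
CPM of the 38 genes (rows, ordered by family) in each of the 12 libraries on a log axis, with 1 point per library and the 3 groups told apart by colour and marker shape. In the row of Hnrnpl, the Ag points lie at 67.6 to 75.3 CPM, below the Naive points at 168 and 175 CPM, and the Ag+Costim points at 268 to 358 CPM lie above both.

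Of the A/B and D families, which carry paired RNA recognition motifs and include the most abundant hnRNPs, 3 of 7 genes rose with costimulation (Hnrnpa1, Hnrnpa2b1 and Hnrnpab) and 4 were not called. Hnrnpa2b1 (chr6:51460932-51469894), the gene with the highest level per length, encodes a protein that binds UAG-containing RNA. Its values were 890.3 and 923 CPM in the Naive libraries, 1057, 1038, 965, 927 and 897 CPM in the Ag libraries and 2026, 2025, 2012, 1779.9 and 2009 CPM in the Ag+Costim libraries. Naive and Ag overlapped and the Ag+Costim libraries stood apart, with a 2.02-fold difference from Ag (log2 fold change 1.01 ± 0.07, adjusted p = 1.6e-07). Hnrnpa1 (chr15:103240432-103246692), a repressor of exons through UAGG motifs, was at 74.8 and 63.2 CPM in the Naive libraries, 167, 125, 123, 137 and 106 CPM in the Ag libraries and 314, 327, 301, 177 and 267 CPM in the Ag+Costim libraries. The 3 groups did not overlap, and Hnrnpa1 rose both between Naive and Ag (log2 fold change 0.93 ± 0.22, adjusted p = 0.00367) and between Ag and Ag+Costim (1.07 ± 0.16, adjusted p = 7.81e-05). Hnrnpab (chr11:51600100-51606847), which binds AU-rich RNA and telomeric DNA, had 257 and 256 CPM in the Naive libraries, 449, 417, 455, 466 and 349 CPM in the Ag libraries and 1090.3, 1142, 971, 505 and 824 CPM in the Ag+Costim libraries. Again no groups overlapped, although Ag+Costim library 4 lay nearer to the Ag libraries than to the other Ag+Costim libraries, and the log2 fold changes were 0.73 ± 0.24 (adjusted p = 0.0246) and 1.09 ± 0.18 (adjusted p = 0.000173).

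Hnrnpd (chr5:99955935-99978938), whose product AUF1 binds AU-rich elements and promotes mRNA decay, rose between Naive and Ag. The Hnrnpd values were 39.9 and 40.9 CPM in the Naive libraries, 88.6, 111, 61.1, 56.1 and 99.3 CPM in the Ag libraries and 125, 104, 77.4, 44.2 and 82.9 CPM in the Ag+Costim libraries. All Ag values exceeded both Naive values (log2 fold change 1.04 ± 0.35, adjusted p = 0.0248), whereas Ag and Ag+Costim overlapped widely (0.05 ± 0.25, adjusted p = 0.871). The difference between those 2 changes was not tested. Hnrnpdl, the paralogue of Hnrnpd, fell between Naive and Ag (log2 fold change -0.57 ± 0.13, adjusted p = 0.0024) and had a log2 fold change of 0.24 ± 0.10 in Ag+Costim against Ag (adjusted p = 0.0553). In CPM, Hnrnpa0 and Hnrnpa3 overlapped in all comparisons. Their means were 11.5 ± 5.17 and 19.1 ± 9.10 CPM in Ag and 14.3 ± 3.30 and 32.5 ± 5.48 CPM in Ag+Costim. Their log2 fold changes for Ag+Costim against Ag were 0.32 ± 0.25 (adjusted p = 0.306) and 0.77 ± 0.31 (adjusted p = 0.0513). In 9 of 22 alternatives, among them both fits on FPKM, Hnrnpa3 was called higher in Ag+Costim than in Ag. Its FPKM was 5.74 to 9.41 in Ag and 12.9 to 17.3 in Ag+Costim, without overlap. The Hnrnpa3 value is uncertain because the annotation holds 28 near-identical copies of its transcript sequence (at least 95% identity over at least 200 bases), which together held 245% of the Hnrnpa3 counts in Ag and 406% in Ag+Costim. With the copies added, Hnrnpa3 was called higher in Ag+Costim (log2 fold change 1.30, adjusted p = 4.89e-07) and lower in Ag against Naive (-0.51, adjusted p = 0.0084). Copies also held 17.8% to 20.3% of the counts of Hnrnpa1 in the 3 groups, 81.4% to 83.3% of those of Hnrnpf, 10.4% to 11.6% of those of Hnrnph2 and 7.0% to 13.6% of those of Tra2b, and no call of these 4 genes in Ag+Costim against Ag was lost when the copies were added.

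The C family proteins bind U-rich tracts and measure RNA length, and its 2 genes differed. Raly (chr2:154791096-154867261), which also takes part in cholesterol gene transcription in liver, was at 52.2 and 58.8 CPM in the Naive libraries, 63.6, 57.6, 64.3, 54 and 61.4 CPM in the Ag libraries and 140.3, 149, 204, 151 and 177 CPM in the Ag+Costim libraries. Naive and Ag overlapped, and every Ag+Costim library was above the highest Ag library, a 2.73-fold difference from Ag (log2 fold change 1.45 ± 0.11, adjusted p = 1.7e-07). Hnrnpc, whose protein binds U-tracts near splice sites, rose between Naive and Ag by 0.53 ± 0.15 (adjusted p = 0.0118) and was not called between Ag and Ag+Costim (0.14 ± 0.11, adjusted p = 0.304).

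The F/H proteins bind G-tracts through quasi RNA recognition motifs. Of the 4 genes, Hnrnpf, Hnrnph1 and Hnrnph2 rose with costimulation, by 0.44 ± 0.10, 0.47 ± 0.12 and 0.49 ± 0.10 on the log2 scale (adjusted p = 0.00142, 0.00559 and 0.00113), and Hnrnph3 was not called (0.01 ± 0.12, adjusted p = 0.954). Between Naive and Ag the adjusted p of the 4 were 0.318, 0.709, 0.11 and 0.0976, for Hnrnpf, Hnrnph1, Hnrnph2 and Hnrnph3. With costimulation, Hnrnph2 had the largest estimate of the 4, by less than its standard error. Hnrnph2 (chrX:134601179-134607060) had 86.6 and 81.9 CPM in the Naive libraries, 99.4, 112, 102, 77 and 121 CPM in the Ag libraries and 142, 146, 142, 144 and 141 CPM in the Ag+Costim libraries. The Ag+Costim libraries were all above the highest Ag library and lay close to each other (SD 1.74 CPM), while Ag library 4 was below both Naive libraries.

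Among the genes with K homology (KH) domains, Khsrp and Khdrbs1 rose with costimulation, Pcbp2 fell, and Hnrnpk, Pcbp1 and Qk were not called. KHSRP binds AU-rich elements, speeds mRNA decay and helps the maturation of some microRNAs. Khsrp (chr17:57021051-57031522) was at 23.4 and 23.2 CPM in the Naive libraries, 11.2, 10.4, 10.7, 16.6 and 10.2 CPM in the Ag libraries and 64.9, 94.1, 51.6, 29.6 and 46.7 CPM in the Ag+Costim libraries. It had the largest estimated increase of the 38 genes (4.86-fold, log2 fold change 2.28 ± 0.26, adjusted p = 6.29e-06), and the groups did not overlap, although the Ag+Costim libraries ranged from 29.6 to 94.1 CPM. The estimates of Dazap1 (2.21 ± 0.11) and Hnrnpl (2.12 ± 0.08) lay within that standard error, so the order of the 3 is not settled. Khsrp fell between Naive and Ag (-0.98 ± 0.32, adjusted p = 0.0208), a call lost with the length correction and with a replicate block (adjusted p = 0.163 and 0.169). Khdrbs1, which encodes the signalling-linked splicing factor Sam68, had a log2 fold change of 0.48 ± 0.07 (adjusted p = 9.32e-05) and Pcbp2, a poly(C) binding protein, of -0.38 ± 0.10 (adjusted p = 0.00562). Hnrnpk and Pcbp1, both binders of C-rich RNA, rose between Naive and Ag by 0.58 ± 0.15 and 0.67 ± 0.24 (adjusted p = 0.00626 and 0.0352), and their values for Ag+Costim against Ag were 0.20 ± 0.11 and 0.17 ± 0.17 (adjusted p = 0.137 and 0.443). Qk (chr17:10202601-10319854), the STAR protein quaking and the gene with the lowest level per length, was at 11 and 9.34 CPM in the Naive libraries, 5.64, 8.55, 4.54, 8.35 and 6.35 CPM in the Ag libraries and 9.68, 7.76, 5.27, 7.47 and 8.57 CPM in the Ag+Costim libraries. The Qk libraries of Ag and Ag+Costim overlapped (0.21 ± 0.20, adjusted p = 0.398), and all 5 Ag libraries were below both Naive libraries without a call (-0.61 ± 0.26, adjusted p = 0.0715).

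All 6 genes of the M, R, Q and U families rose with costimulation. Hnrnpu (chr1:178321108-178337797), which encodes the scaffold attachment factor A that binds chromatin and RNA, stood at 707 and 723 CPM in the Naive libraries, 635, 728, 676, 564 and 696 CPM in the Ag libraries and 1521, 1836, 1592, 1126 and 1436 CPM in the Ag+Costim libraries. Naive and Ag overlapped, and the lowest Ag+Costim library was well above both, with a log2 fold change of 1.19 ± 0.12 against Ag (adjusted p = 2e-06). Hnrnpul1 (chr7:25721165-25754757), a relative with a role at DNA breaks, was at 63.6 and 66.2 CPM in the Naive libraries, 35.7, 39.3, 33.4, 30.5 and 35.8 CPM in the Ag libraries and 137, 183, 147, 136 and 132 CPM in the Ag+Costim libraries. Its groups did not overlap, and it fell between Naive and Ag (-0.89 ± 0.13, adjusted p = 8.3e-05) and rose 4.21-fold between Ag and Ag+Costim (log2 fold change 2.07 ± 0.10, adjusted p = 1.2e-08). Hnrnpul2 had the same directions with -0.93 ± 0.16 (adjusted p = 0.000302) and 0.75 ± 0.12 (adjusted p = 0.000188).

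Hnrnpr (chr4:136310942-136359447) and Syncrip (chr9:88447009-88482574, hnRNP Q) encode close relatives that act in mRNA transport and translation as well as in splicing. Hnrnpr had 145 and 146 CPM in the Naive libraries, 79.2, 92.9, 79.4, 69.6 and 79.3 CPM in the Ag libraries and 174, 183, 187, 169 and 175 CPM in the Ag+Costim libraries. All Ag values of Hnrnpr were below both Naive values and all Ag+Costim values above them, with log2 fold changes of -0.86 ± 0.10 (adjusted p = 1.46e-05) and 1.15 ± 0.08 (adjusted p = 1.06e-07). Corrected for gene length, the first was -0.19 and not called (adjusted p = 0.256). Syncrip was at 84.3 and 90.2 CPM in the Naive libraries, 82, 79.1, 80.7, 76.8 and 84.8 CPM in the Ag libraries and 171, 200.1, 178, 133 and 157 CPM in the Ag+Costim libraries. Naive and Ag overlapped for Syncrip, and Ag+Costim was 2.08-fold above Ag (log2 fold change 1.06 ± 0.10, adjusted p = 1.09e-06). Hnrnpm rose in both steps, by 0.35 ± 0.11 between Naive and Ag (adjusted p = 0.0192) and by 0.59 ± 0.08 between Ag and Ag+Costim (adjusted p = 3.84e-05).

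The CELF and MBNL proteins bind GU-rich and YGCY motifs and can act against each other on the same exons. Of these 5 genes, 4 rose with costimulation and Mbnl2 fell. Celf1 (chr2:90940382-91019497) was at 165 and 177 CPM in the Naive libraries, 79.3, 91.9, 84.3, 97.5 and 105 CPM in the Ag libraries and 195, 217, 199, 203 and 184 CPM in the Ag+Costim libraries. The Ag libraries lay below the other groups, with a log2 fold change of -0.90 ± 0.11 against Naive (adjusted p = 2.01e-05) and of 1.12 ± 0.09 for Ag+Costim against Ag (adjusted p = 2.38e-07), and Ag+Costim against Naive was not called (0.22 ± 0.11, adjusted p = 0.119). With the length correction, the Celf1 change between Naive and Ag was -0.19 and not called (adjusted p = 0.182). Mbnl3 (chrX:51117269-51206532), a muscleblind gene with low expression in most adult tissues, had 4.75 and 4.56 CPM in the Naive libraries, 15.9, 12.9, 16.5, 11.8 and 13.1 CPM in the Ag libraries and 38.1, 38.4, 43.3, 33.1 and 39.8 CPM in the Ag+Costim libraries. The Mbnl3 groups did not overlap, and the gene was 3.02-fold higher in Ag than in Naive (log2 fold change 1.59 ± 0.17, adjusted p = 6.07e-06) and 2.74-fold higher in Ag+Costim than in Ag (1.45 ± 0.12, adjusted p = 2.99e-07). Ag+Costim exceeded Naive 8.27-fold, the largest such change of the 38 genes.

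The other muscleblind genes moved differently. Mbnl1, the highest of the 3 per length (155, 10.4 and 14.3 FPKM in Ag+Costim for Mbnl1, Mbnl2 and Mbnl3), fell between Naive and Ag (-0.58 ± 0.12, adjusted p = 0.00142) and rose between Ag and Ag+Costim (0.59 ± 0.09, adjusted p = 0.000137), with means of 492 ± 1.76 CPM in Naive (SD, n = 2) and 493 ± 51.3 CPM in Ag+Costim (SD, n = 5). Corrected for gene length, its changes were -0.15 and 0.19 and neither was called (adjusted p = 0.354 and 0.103). Mbnl2 fell in both steps, from a mean of 83.3 ± 1.95 CPM in Naive to 44.9 ± 6.83 CPM in Ag (log2 fold change -0.89 ± 0.16, adjusted p = 0.000478) and 30.8 ± 5.31 CPM in Ag+Costim (-0.54 ± 0.13, adjusted p = 0.00254). Celf2 had small increases of 0.25 ± 0.08 (adjusted p = 0.0245) and 0.34 ± 0.06 (adjusted p = 0.000506). The second of these turned to -0.11 when the libraries were corrected for gene length.

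Of the remaining 4 genes, Dazap1, Tra2a and Tra2b rose with costimulation and Elavl1 was not called. DAZAP1 promotes inclusion of weak exons and is a substrate of ERK kinase. Dazap1 (chr10:80261486-80288408) was at 63.5 and 55.6 CPM in the Naive libraries, 28, 35.5, 26.5, 34.8 and 26.3 CPM in the Ag libraries and 138, 154, 147, 120.2 and 138 CPM in the Ag+Costim libraries. The 3 groups did not overlap, with Ag lowest, and the log2 fold changes were -0.98 ± 0.14 for Ag against Naive (adjusted p = 6.44e-05) and 2.21 ± 0.11, or 4.62-fold, for Ag+Costim against Ag (adjusted p = 1.2e-08). Elavl1 (chr8:4285382-4325413), which encodes HuR, a stabiliser of mRNA with AU-rich elements, was at 96.3 and 97 CPM in the Naive libraries, 213, 230.4, 252, 167 and 227 CPM in the Ag libraries and 255, 275, 192, 128 and 185 CPM in the Ag+Costim libraries. All 10 stimulated libraries exceeded both Naive libraries (Ag against Naive 1.17 ± 0.25, adjusted p = 0.00172), and Ag and Ag+Costim overlapped (-0.07 ± 0.18, adjusted p = 0.752).

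The Tra2 proteins bind GAA-rich exonic enhancers and favour inclusion. Tra2b (chr16:22244549-22266005) stood at 149 and 146 CPM in the Naive libraries, 151, 114, 139.8, 138 and 114 CPM in the Ag libraries and 381, 357, 428, 378 and 411 CPM in the Ag+Costim libraries. Naive and Ag overlapped, and all Ag+Costim libraries were above them, at 357 to 428 CPM (log2 fold change 1.57 ± 0.10, adjusted p = 3.87e-08). Tra2a (chr6:49243924-49264033) had 47.8 and 56.5 CPM in the Naive libraries, 22.6, 21.7, 21.3, 46.1 and 23.5 CPM in the Ag libraries and 61, 64.2, 59.5, 60.2 and 57.2 CPM in the Ag+Costim libraries. The Ag libraries were below both other groups, with library 4 just under the lower Naive library, and the log2 fold changes were -0.95 ± 0.24 (adjusted p = 0.0053) and 1.16 ± 0.19 (adjusted p = 0.000165). Without Ag library 4, the library with the fewest counts and the highest erythroid signal, 29 of the 38 genes rose and 2 fell between Ag and Ag+Costim, with a median of 0.73, and 13 rose and 14 fell between Naive and Ag.

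Per length of transcript, 31 of the 37 pairs of genes next to each other in the order of FPKM overlapped between the Ag+Costim libraries, so that only broad tiers could be told apart. Hnrnpa2b1 had the highest level, with mean FPKM of 635 in Naive, 606 ± 49.4 in Ag and 1165 ± 65.6 in Ag+Costim (SD, n = 5), and in Ag+Costim it did not overlap the next gene. Hnrnpk, Hnrnpf, Hnrnpab and Hnrnpc followed, at 578, 572, 436 and 336 FPKM in Ag+Costim. At the other end were Qk at 0.94 FPKM, Hnrnpul2 at 3.62 FPKM and Hnrnpa0 at 5.09 FPKM. Summed over the 38 genes, FPKM was 3404 to 3465 in Naive, 3199 to 3634 in Ag and 4642 to 5864 in Ag+Costim, so that Naive lay within the range of Ag and all Ag+Costim libraries were higher. The 5 genes with the highest FPKM held 55.2%, 59.5% and 57.4% of the sum in Naive, Ag and Ag+Costim.

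The balance between paralogues was described by the ratio of their counts in each library, with no test and with no such ratios for other pairs of genes to set beside it. In the pairs named first, the Ag and Ag+Costim libraries did not overlap. The ratio of Hnrnpl to Hnrnpll was 4.85 and 4.25 in the Naive libraries, 0.76 to 1.16 in the Ag libraries and 1.91 to 2.23 in the Ag+Costim libraries. Ptbp1 to Ptbp3 had geometric means of 1.77 in Naive, 1.66 in Ag and 3.89 in Ag+Costim. Mbnl1 to Mbnl3 was 106 in Naive, 23.5 in Ag and 12.8 in Ag+Costim, and Mbnl1 to Mbnl2 was 5.91, 7.35 and 16.1. Hnrnpc to Raly was 6.93, 9.14 and 3.77, Hnrnpul1 to Hnrnpul2 was 2.96, 3.05 and 7.58, and Celf1 to Celf2 was 0.94, 0.42 and 0.72. For the other 8 pairs, among them Tra2b to Tra2a and Hnrnpa1 to Hnrnpa2b1, the Ag and Ag+Costim libraries overlapped. With FPKM in place of counts, those of Celf1 to Celf2 overlapped as well.

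**Figure D3:**
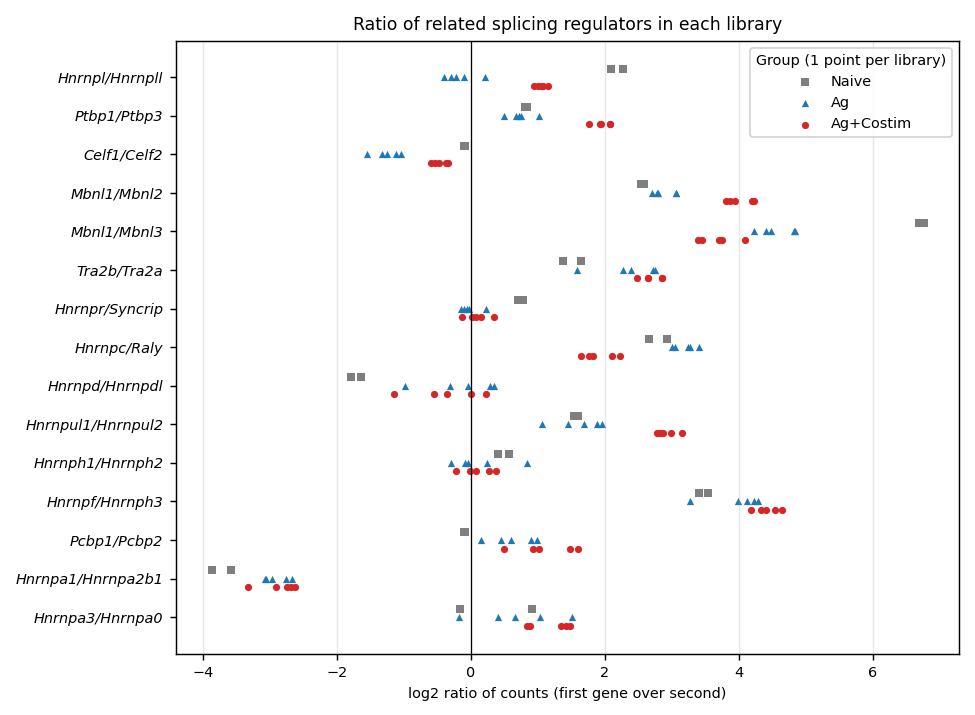
Log2 ratio of the counts of 2 paralogues, first gene over second, for 15 pairs (rows), with 1 point per library and the groups told apart by colour and marker shape. In the row of Hnrnpl to Hnrnpll, the Naive points lie to the right (ratios of 4.25 and 4.85), the Ag points around 0 (0.76 to 1.16) and the Ag+Costim points between them (1.91 to 2.23).

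Several of these genes make annotated transcripts that keep an intron or end in a premature stop, and the share of such transcripts was next compared. Transcript counts were summed by annotated class within each gene and tested with edgeR's diffSpliceDGE, a fit added after the data were seen. Of 81 classes in 31 of the genes, 4 were called between Ag and Ag+Costim, in 4 genes, and 3.48% of all 18264 classes were called in that comparison. Retained-intron transcripts of Tra2a made up 62.0% and 69.99% of the gene's counts in the Naive libraries, 45.1% to 55.6% in Ag and 20.6% to 23.8% in Ag+Costim. No group overlapped another, and the Ag to Ag+Costim difference was called (log2 usage change -1.19, adjusted p = 0.0342), although the call was lost on leaving out any 1 library other than Ag 3, Ag 5 or Naive 1, with the largest adjusted p at 0.0828. Protein-coding transcripts of Tra2a held 27.0%, 46.8% and 75.1% of the counts in the 3 groups. Retained-intron transcripts of Hnrnpa2b1 were at 8.80% ± 0.75 in Naive (SD, n = 2), 4.76% ± 1.16 in Ag and 1.94% ± 0.23 in Ag+Costim (SD, n = 5), a log2 usage change of -1.28 from Ag to Ag+Costim (adjusted p = 0.000138) that was called with any 1 library left out. Non-coding transcripts of other classes also fell in Hnrnpu, from 2.71% to 0.72% (adjusted p = 0.0127), and in Hnrnpdl, from 3.59% to 0.72% (adjusted p = 0.00288). The call of Hnrnpu was lost without Ag library 4 (adjusted p = 0.0551) and that of Hnrnpdl without Ag library 2 (adjusted p = 0.0639).

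Between Naive and Ag, 4 classes in 3 genes were called, and 1.94% of all classes. Hnrnph1 had 70.1% ± 16.4 of its counts in transcripts of other non-coding classes in Naive (SD, n = 2) and 19.5% ± 6.13 in Ag (SD, n = 5), with adjusted p = 0.00475, and its coding share was 29.9% and 80.5% (adjusted p = 0.0200). Both calls were lost without Naive library 1 (adjusted p = 0.057 and 0.517). Dazap1 retained-intron transcripts fell from 4.30% to 0.37% (adjusted p = 0.00543) and other non-coding transcripts of Tra2b from 5.17% to 0.79% (adjusted p = 0.0064). The Dazap1 call was lost without either Naive library (adjusted p = 0.0576 and 0.0826) and the Tra2b call without Naive library 2 (adjusted p = 0.223). Between Naive and Ag+Costim, 13 classes in 10 of the genes were called, beside 4.41% of all classes. Of these 13, all 11 that were not of the protein-coding class were lower in Ag+Costim. The 2 protein-coding classes, of Hnrnph1 and Tra2a, were higher. Transcripts of Hnrnpa1 annotated as targets of decay fell from 49.3% in Naive to 16% in Ag+Costim (adjusted p = 0.0162), those of Khdrbs1 from 24.8% to 8.32% (adjusted p = 0.0172), and retained-intron transcripts of Mbnl1 from 21.6% to 10.2% (adjusted p = 0.0128). These 3 calls were lost without either Naive library, the first also without Ag+Costim library 2 or 3 and the second without Ag+Costim library 3. Of the 13 classes, 3 were called without Naive library 1 and 6 without Naive library 2, with retained-intron transcripts of Hnrnpa2b1 and other non-coding transcripts of Hnrnpu among them both times. The shares of 18 of the 81 classes did not overlap between Ag and Ag+Costim, beside 13.9% of all classes. Decay and retained-intron transcripts together had a lower mean share in Ag+Costim than in Ag in 24 of 28 of these genes, beside 66.7% of 6267 genes in all, with a median difference of -1.32 percentage points beside -0.61. From Naive to Ag the share was lower in 22 of 28 genes, beside 71.9% of all.

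**Figure D4:**
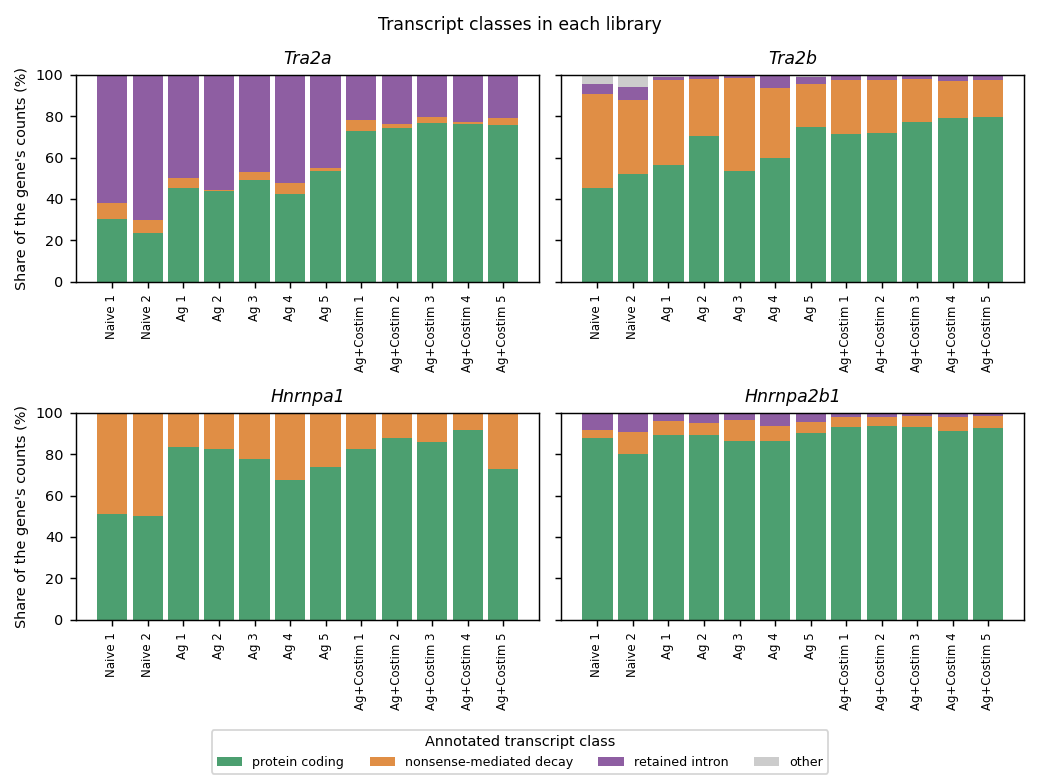
Stacked bars give the percent of a gene's transcript counts in each annotated class, with 1 bar per library, in 4 panels for Tra2a, Tra2b, Hnrnpa1 and Hnrnpa2b1. Retained-intron transcripts of Tra2a are at 62.0% and 69.99% in Naive, 45.1% to 55.6% in Ag and 20.6% to 23.8% in Ag+Costim.

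Tra2b holds a known example of such self-limiting splicing, an exon that carries stop codons and whose inclusion gives a transcript degraded by decay. The transcript with it, Tra2b-206, contains an exon of 276 bases at chr16:22258986-22259261 (mm10, minus strand), and the 81 bases at its 5′ end, chr16:22259181-22259261, complete a reading frame that the annotation gives with 114 coding bases. They are shown because they hold the premature stop codon, in capitals, read 5′ to 3′ on the transcript's strand.
Tra2b exon, first 81 bases: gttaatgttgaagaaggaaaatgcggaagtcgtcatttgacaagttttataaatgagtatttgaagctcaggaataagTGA
The shares that follow sum the transcripts of Tra2b annotated as decay targets, and the share of Tra2b-206 alone is not given. Decay transcripts of Tra2b held 45.3% and 36.0% of the gene's counts in Naive, 40.8%, 27.3%, 45.0%, 34.2% and 20.8% in Ag and 25.8%, 25.8%, 20.9%, 17.7% and 18.3% in Ag+Costim. The Ag and Ag+Costim libraries overlapped, and the class was not called between them (adjusted p = 0.0742) and was called between Naive and Ag+Costim (adjusted p = 0.0417), a call lost without either Naive library or without Ag+Costim library 3, 4 or 5.

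Among single transcripts, edgeR called 8 of 294 tested between Ag and Ag+Costim, which were Hnrnpa1-205, Hnrnpc-202, Hnrnpd-209, Hnrnpk-224, Hnrnpl-202, Hnrnpl-211, Hnrnpr-205 and Tra2b-209. At the level of genes, 6 of 36 were called (Hnrnpa1, Hnrnpc, Hnrnpd, Hnrnpk, Hnrnpl and Tra2b). Over all genes, 2.57% of transcripts and 8.72% of genes were called. None of the 8 moved the mean share of its gene by 10 percentage points or more. Without 1 library, the call of Hnrnpl-202 held in every case, and that of Hnrnpd-209 held wherever it passed the filter on low counts, which it did not without Ag library 2 or 3. Hnrnpk-224 was lost without Ag+Costim library 5, Hnrnpc-202 without Ag+Costim library 4, Hnrnpl-211 without any of 4 libraries (Ag 1, 2 or 5, Ag+Costim 2), Hnrnpr-205 and Hnrnpa1-205 without any of 6 (Ag 1, 3, 4 or 5 and Ag+Costim 2 or 3 for the former, Ag 1, 2, 3 or 5 and Ag+Costim 1 or 5 for the latter) and Tra2b-209 without any of 7 (Ag 3, Ag+Costim 1, 2, 4 or 5, Naive 1 or 2). With limma's diffSplice, 1 of the 8, Hnrnpk-224, was called. Between Naive and Ag, 4 transcripts and, at the level of genes, 2 genes were called, beside 1.66% of all transcripts and 5.93% of all genes. Of these, Hnrnph1-201, a protein-coding transcript, held 3.26% and 8.44% of Hnrnph1 counts in Naive and 50.2%, 59.2%, 79.6%, 58.0% and 57.7% in Ag (adjusted p = 0.00362). Its call was lost without Naive library 1 (adjusted p = 0.2395) and with a replicate block (adjusted p = 0.0745). Syncrip-208 held 0% in both Naive libraries and 8.08%, 71.4%, 24.4%, 0% and 44.7% in Ag (adjusted p = 0.0240), a spread that included a library at 0. Its call was lost without either Naive library or Ag library 2, with limma and with the block (adjusted p = 0.0629 to 0.383). Assignment of reads to transcripts that share most of their sequence was done by the authors' software, and its error is not part of these tests.

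Splice node values (Psi) give the estimated fraction of a gene's transcripts, at that position, that include an exon or exon part, with 1 value for Ag and 1 for Ag+Costim and no replicates, so they are given without a test. Of 365 exon, intron, splice site, first-exon or last-exon nodes in 36 of the genes, 9 (2.47%) differed by at least 0.1, beside 2.7% of 94298 such nodes in all genes, a share close to the background. Of the 9, 5 had the higher Psi in Ag+Costim, beside 1641 of 2543 in all genes. Coding cassette exons made up 4 of the 9, in Hnrnph3, Hnrnpa2b1, Celf2 and Hnrnph1. The Psi of the Hnrnph3 exon was 0.525 in Ag and 0.701 in Ag+Costim (chr10:63018760-63018898, minus strand). In Hnrnph1 it was 0.847 and 0.973 (chr11:50381459-50381597, plus strand). Both exons have 139 bases, belong to a quasi RNA recognition motif and are identical at 126 of 139 positions (90.6%). They are shown because they occupy the same place in 2 paralogues, with the positions that differ in capitals, in mm10 and 5′ to 3′.
Hnrnph1 exon: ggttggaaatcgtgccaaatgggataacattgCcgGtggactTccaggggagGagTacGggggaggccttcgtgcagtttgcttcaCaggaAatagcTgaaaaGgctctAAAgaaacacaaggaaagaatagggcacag
Hnrnph3 exon: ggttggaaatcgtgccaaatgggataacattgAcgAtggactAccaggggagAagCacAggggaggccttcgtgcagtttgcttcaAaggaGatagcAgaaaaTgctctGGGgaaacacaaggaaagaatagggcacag
A length of 139 is not a multiple of 3, and when the exon was left out of an annotated coding transcript the frame reached a stop after 552 coding bases in Hnrnph1 (with it, 1416) and after 213 in Hnrnph3 (with it, 1038). Those stops lay 609 and 612 bases before the last exon junction, beyond the 50 bases commonly used to mark targets of nonsense-mediated decay. Hnrnph3-204, annotated as a decay transcript with a coding sequence of 213 bases, held 19.9% of Hnrnph3 counts in Naive, 23.0% ± 11.2 in Ag and 17.3% ± 7.95 in Ag+Costim (SD, n = 5) and was not called in any comparison.

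The Celf2 exon of 80 bases (chr2:6607882-6607961, minus strand) had a Psi of 0.768 in Ag and 0.928 in Ag+Costim, and without it the frame of Celf2-204 reached a stop after 603 coding bases of 1578, 942 bases before the last junction. The Hnrnpa2b1 exon of 120 bases (chr6:51464428-51464547, minus strand) had 0.491 and 0.666, encodes part of the glycine-rich region, and keeps the frame when skipped, with 939 coding bases in place of 1059. These sequences are shown as the 2 other coding exons of the set, 5′ to 3′ on the minus strand of mm10, with no part in capitals.
Celf2 exon: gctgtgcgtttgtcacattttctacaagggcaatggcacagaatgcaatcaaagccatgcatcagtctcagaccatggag
Hnrnpa2b1 exon: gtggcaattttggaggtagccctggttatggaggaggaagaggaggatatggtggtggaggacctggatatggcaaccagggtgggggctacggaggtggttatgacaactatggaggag
The largest difference was at a 12-base alternative donor in Ptbp3 (chr4:59548531-59548542), with Psi of 0.648 in Ag and 0.164 in Ag+Costim. The last 4 of the 9 nodes lie outside coding sequence. They are an exon of 136 bases in Hnrnpa2b1 (0.352 and 0.207), an alternative last exon of Hnrnpul1 (0.201 and 0.042), an alternative first exon of Hnrnpf (0.305 and 0.420) and a 3-base alternative acceptor in Hnrnpr (0.351 and 0.244). Alternative tandem 3′ ends differed more often in all genes, with 29.9% of 12351 such nodes at 0.1 or more and 15 of 83 (18.1%) in these genes, in Celf2, Dazap1, Hnrnpd, Mbnl1, Ptbp3 and Syncrip. In Celf2, 2 adjoining segments of its 3′ end had Psi of 0.310 and 0.695 in Ag and of 0.812 and 0.184 in Ag+Costim.

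**Figure D5:**
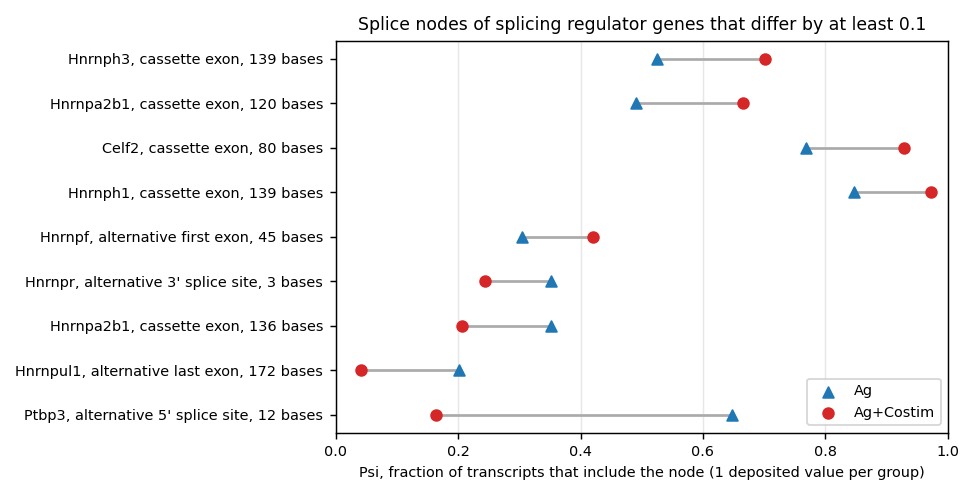
Psi of the 9 splice nodes that differ by at least 0.1 between Ag and Ag+Costim, on a horizontal axis from 0 to 1, with 1 row per node, 1 deposited value per group and a line that joins both. The Ag+Costim point lies to the right of the Ag point for the 4 coding cassette exons (Hnrnph3, Hnrnpa2b1 with 120 bases, Celf2 and Hnrnph1), and the longest line, that of the Ptbp3 donor, runs from 0.648 in Ag to 0.164 in Ag+Costim.

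The 6 genes with exons tied to these regulators in earlier work (Ptprc, Pkm, Malt1, Cd44, Lef1 and Ptbp2) were read in the same way. None of the 6 was called for transcript usage by edgeR in any of the 3 comparisons. The smallest unadjusted p was 0.0890, for Ptprc in Ag+Costim against Naive, and that of Ptbp2 in Ag+Costim against Ag was 0.983. The variable exons A, B and C of Ptprc (chr1:138122456-138122584, chr1:138120020-138120166 and chr1:138117754-138117894) had Psi of 0.00984, 0.295 and 0.0579 in Ag and 0.0116, 0.295 and 0.0455 in Ag+Costim. In Pkm, of the mutually exclusive exons, the one at chr9:59675568-59675734 was at 0.990 and 1.000 and the one at chr9:59675029-59675195 at 0.0323 and 0.0134. Of 10 variable exons of Cd44, 9 were at 0.0366 to 0.0451 in Ag and 0.0271 to 0.0365 in Ag+Costim, and the remaining one (chr2:102831330-102831536) was at 0.0701 and 0.0786. No node of Malt1 or Lef1 differed by 0.1 or more. In Psi, Ptbp2, the paralogue that PTBP1 is known to hold down by skipping of a 34-base exon, was the exception. That exon (chr3:119724612-119724645, minus strand) had a Psi of 0.223 in Ag and 0.484 in Ag+Costim, and its absence puts a stop in the frame after 1068 of 1596 coding bases. It is shown 5′ to 3′ with no part in capitals.
Ptbp2 exon: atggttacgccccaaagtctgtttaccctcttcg
The Psi of this exon was higher in Ag+Costim, where Ptbp1 mRNA was also higher, and a link between them was not tested. The other Ptbp2 nodes past 0.1 were a 3-base alternative acceptor (0.552 in Ag and 0.699 in Ag+Costim) and an alternative last exon (0.295 and 0.178). Ptbp2 mRNA itself fell, from 17.3 CPM in Naive to 11.7 ± 1.62 CPM in Ag and 8.88 ± 0.69 CPM in Ag+Costim (log2 fold change -0.39 ± 0.12 for Ag+Costim against Ag, adjusted p = 0.0150).

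Of 48 other splicing regulators set beside the 38 (among them SR proteins, their kinases, RBM and U2AF genes), 47 were tested. Between Ag and Ag+Costim, 27 rose, 13 fell and 7 were not called, with a median of 0.42, beside 26.6% of all genes called higher and 26.5% lower. Between Naive and Ag, 7 rose, 22 fell and 18 were not called, with a median of -0.33, beside 24.2% of all genes called higher and 22.5% lower. Those that rose with costimulation included U2af2 (log2 fold change 2.25), U2af1 (1.96) and Srsf1 (1.74), which encode both subunits of the factor that recognises the 3′ splice site and an SR protein. The 13 that fell included the SR protein kinases Srpk1, Srpk2, Clk1 and Clk4. Also among them were the SR proteins Srsf5 and Srsf9 and the SR-related genes Srrm2 and Rbm39. Genes that fell were 2 of 38 (5.3%) among the hnRNPs and auxiliary regulators and 13 of 47 (27.7%) in this list, beside 26.5% of all genes. The differences between these shares were not tested.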

How the data were processed

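RNA-seq libraries of 12 samples were grouped by their labels into Naive (2), Ag (5) and Ag+Costim (5). Per the submitters' processing notes and the study's methods, the authors aligned single-end reads of SMART-Seq v4 and Nextera XT libraries to mm10 with HISAT2 2.1.0, sorted them with SAMtools 1.9 and quantified them with StringTie 2.1.0. The deposited counts per gene and per transcript were derived by StringTie from coverage and are not normalized. The deposited FPKM values are scaled by the authors for transcript length and library size. The deposited Psi values are fractions from Whippet, with 1 value per group, and how replicates were combined is not given in the sources used here. The same table holds the authors' differences between groups and their probabilities, which were not used. The percent of reads aligned (72.3% to 76.5%) and of complexity (21.64% to 31.6%) come from the deposited sheet of the sequencing core, which also gives reads per library (24714617 to 46800347). Its input amount, with no unit, is 0 for all Ag libraries, 10 for all Ag+Costim libraries and 8.5 and 10.7 for Naive, so it cannot be told apart from the groups. The kit does not mark strand. Another annotated gene overlaps 25 of the 38, and for 11 it lies on the same strand.

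Of 81881 entries of the gene table, 55536 were matched to GENCODE vM21 and of 168207 transcript entries 141862. The rest were unannotated loci that held 0.0508% to 0.121% of counts and were left out. All 12 libraries entered 1 fit, with a term for each group, in edgeR 4.0.16 (R 4.3.3) after TMM scaling and filterByExpr, with the robust quasi-likelihood test, two-sided, and Benjamini-Hochberg adjustment over 18817 genes at 0.05. Errors of fold changes are standard errors. Transcript usage was tested with diffSpliceDGE over 41844 transcripts in 9745 genes. Gene FPKM was summed over the entries of a gene name. Alternatives were DESeq2 1.42.0, limma 3.58.1 on log2(FPKM + 1) and log2(FPKM + 0.1), other scalings and filters, a correction for gene length, a replicate block, fits without each library, and, added after the data were seen, counts with near-identical copies added (found with BLAST+ 2.17.0) and transcript classes. Scripts used Python 3.11.15 and pandas 2.3.3 and were tested on simulated data.

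Members, gene lists and tests were chosen with earlier results of these data known. All 38 genes were named with a fold change. Values in every library were given for genes called with a log2 fold change of at least 1 in size in Ag+Costim against Ag or Ag against Naive, for the gene with the largest change of each family, and for the highest and lowest level per length, which makes 21 genes. Shares were given for single transcripts called with a change of at least 10 percentage points, and other called transcripts were named only. Hnrnph3-204 was added after its values were seen, for the exon it lacks. Exon sequences were cut from the GENCODE vM21 transcript sequences at the exon boundaries of the annotation. Near-identical copies were defined by at least 95% identity over at least 200 bases. Values of 1 gene outside the 38 are not reported here.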

Additional observations from a re-analysis of the deposited data

Results flagged for a closer look

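Among 76 groups of 5 libraries (38 genes in Ag and in Ag+Costim), 8 held a library whose gap to its nearest neighbour was above 0.71 of the whole range, Dixon's critical value for 5 values. Chance alone flags about 1 in 20 groups. In Ag, 4 of the 5 flagged values belonged to library 4, which has the fewest counts and the highest erythroid signal, and their part in these values was not tested. Library 4 was highest for Tra2a (46.1 CPM beside 21.3 to 23.5 CPM, a gap of 0.908 of the range), Khsrp (16.6 CPM beside 10.2 to 11.2 CPM, 0.845) and Hnrnpa0 (20.3 CPM beside 7.47 to 11.1 CPM, 0.719), and lowest for Hnrnpk (948 CPM beside 1386 to 1475 CPM, 0.831). Ag library 5 was highest for Mbnl2, at 57.0 CPM beside 40.3 to 43.0 CPM (0.835). In Ag+Costim, library 4 was lowest for Hnrnpa2b1 (1779.9 CPM beside 2009 to 2026 CPM, 0.932) and highest for Mbnl2 (40.0 CPM beside 26.5 to 29.9 CPM, 0.751), and library 2 was highest for Ptbp3 (117 CPM beside 102 to 105 CPM, 0.775).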

How the results depend on the processing

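In 22 alternatives, 22 of 28 called genes kept their call and direction in all of them for Ag+Costim against Ag, 8 of 22 for Ag against Naive and 20 of 28 for Ag+Costim against Naive, while 4, 12 and 5 uncalled genes were called in at least 1. The median of the 38 genes was 0.67, -0.11 and 0.77 in these comparisons. Upper-quartile scaling gave 0.47 and 0.62 for Ag+Costim against Ag and against Naive, while it moved the median of all genes to -0.24 and -0.18. A correction for gene length gave 0.54 for Ag+Costim against Ag and turned Ag against Naive to 0.013. With FPKM, limma gave -0.33 for Ag against Naive and 0.56 for Ag+Costim against Naive with 1 added, and -0.34 and 0.57 with 0.1 added. For Ag against Naive, 11 genes rose and 11 fell. The rising ones were 3 to 13 without 1 library (4 without Naive 1, 3 without Naive 2, 13 without Ag 4) and 6 with FPKM at either pseudocount. The falling ones were 6 with the length correction and 17 with FPKM + 1. For Ag+Costim against Naive, 3 fell, 1 to 3 without 1 library (1 without either Naive library) and 1 with the length correction. A fit without 1 Naive library assumes that the other varies like the other groups.

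The length correction reversed Celf2 (-0.11) and Ptbp3 (-0.17) in Ag+Costim against Ag, and Hnrnpu (0.61), Khdrbs1 (0.28), Ptbp3 (0.53) and Syncrip (0.59) in Ag against Naive. The last 4 were not called in the main fit and were called higher with the length correction. FPKM reversed Ptbp3 in Ag+Costim against Ag (-0.38 with 1 added, -0.40 with 0.1 added). The cause was not tested.

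Counts of transcripts depended most on the setting. Between Ag and Ag+Costim, 8 transcripts in 6 genes were called, 3 in 3 at 1 CPM in 2 libraries, 26 in 12 with limma diffSplice, 2 in 2 with only both groups, and 5 to 11 in 3 to 7 without 1 library (5 transcripts without Ag 2; 3 genes without Ag 2, Ag 3 or Ag+Costim 4). Between Naive and Ag, 4 in 2 became 2 in 1, 19 in 11 and, with only both groups, 1 gene, and 1 to 6 in 0 to 4 without 1 library (1 transcript without Naive 2; 0 genes without either Naive library; 4 genes without Ag 1). Hnrnpc-202 had a log2 usage change of -5.04 there, and -6.38 to 0.73 without 1 library, reversed without Naive 2. Called transcript classes numbered 2 to 5 between Ag and Ag+Costim (2 without Ag 4), 1 to 5 between Naive and Ag (1 without Naive 1, 2 without Naive 2) and, of 13, 3 to 15 between Naive and Ag+Costim (3 without Naive 1, 6 without Naive 2).

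The labels give the same replicate numbers to all groups. Deviations of same-numbered Ag and Ag+Costim libraries correlated at 0.016 to 0.095. Ag 1, 2 and 3 correlated best with the Ag+Costim library of their own number, and Ag 4 and 5 with the other's number. Because the labels do not say that a number marks a shared mouse or day, the numbers were not taken as pairs. With a replicate block, 26 genes rose and 2 fell between Ag and Ag+Costim, 10 fell between Naive and Ag (Khsrp was lost) and 2 fell between Naive and Ag+Costim (Hnrnpdl was lost). Transcript usage was called in 2 genes between Ag and Ag+Costim and for 1 transcript in 1 gene between Naive and Ag.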

Other observations

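Of the paralogues known mainly from other tissues, most were at or near 0 CPM. Pcbp4, a poly(C) binding protein, was the exception that rose with costimulation, with means of 3.64 CPM in Naive, 4.79 ± 0.82 CPM in Ag and 12.2 ± 1.52 CPM where costimulation was added (SD, n = 5). Its log2 fold change against Ag was 1.35 ± 0.19 (standard error). Pcbp3 fell between Ag and Ag+Costim, from 7.38 ± 1.78 to 4.18 ± 1.08 CPM (log2 fold change -0.82 ± 0.22, edgeR adjusted p = 0.0065). Esrp2, an epithelial splicing factor, was at 2.58, 0.99 and 0.42 CPM in Naive, Ag and Ag+Costim.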
